A study of Homo sapiens with 8 samples.

Results

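The 3 angiomotin genes AMOTL2, AMOTL1 and AMOT, together with ANKRD1, were examined for binding of YAP and its DNA-binding partners in HuCCT1, a human cell line from cancer of the bile ducts. A peak belonged to a locus when its centre lay within 100 kb of the transcription start on the hg19 build. The starts were at position 134093259 of chromosome 3 (AMOTL2), 94501508 of chromosome 11 (AMOTL1), 112084043 of chromosome X (AMOT) and 92681032 of chromosome 10 (ANKRD1). By this rule 75 of the 51828 peaks in 5 lists were members: 43 at AMOTL2, 17 at AMOTL1, 2 at AMOT and 13 at ANKRD1.

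Binding had been profiled by chromatin immunoprecipitation and sequencing, with 8 libraries in all from this cell line. Each of the 5 peak lists came from 1 library. HA-YAP5SA is YAP carrying an HA tag and made with the phosphorylation-resistant 5SA substitutions, precipitated through the tag. The other antibodies were against YAP, against TAZ, a close relative of YAP encoded by WWTR1, and against TEAD4 and TEAD1. The libraries labelled GFP, IgG and Input are named as background in the series' design text, without saying which was used for which list, and were not analysed here. The labels give no treatment or time point, and they do not say how the tagged protein was introduced or whether the cells used for the other antibodies carried it. With no replicates, no value below has a replicate error and none was tested between lists. The number of reads behind each list is unknown.

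YAP and TAZ are transcriptional coactivators that reach DNA mainly through TEAD factors and are held out of the nucleus when the Hippo kinases phosphorylate them. Angiomotins are junction and actin scaffold proteins that bind YAP and keep it in the cytoplasm, so AMOTL2, a widely used YAP target gene, encodes a restraint on the protein that activates it. ANKRD1 encodes an ankyrin repeat protein first described in muscle, and it is another gene commonly read as a measure of YAP activity.

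The bases just before the gene starts are shown here because peaks covered the starts of AMOTL2 and ANKRD1. They are RefSeq promoter sequences on the GRCh38.p14 build, whose coordinates do not apply to the hg19 peaks. Each gives the 250 bases before a start, 5′ to 3′ along the gene, with the TEAD recognition core GGAATG, or CATTCC on the other strand, in capitals. All 4 genes had an entry, and AMOTL2 had 2 starts lying 970 bp apart. Which of these is the hg19 start of the rule was not settled here, so both are printed.
ANKRD1 (chr10:90921088-90921337, minus strand): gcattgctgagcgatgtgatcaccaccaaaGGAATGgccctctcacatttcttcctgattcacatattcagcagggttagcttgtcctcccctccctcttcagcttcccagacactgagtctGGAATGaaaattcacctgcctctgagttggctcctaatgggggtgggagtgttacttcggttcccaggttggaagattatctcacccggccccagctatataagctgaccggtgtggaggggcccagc
AMOTL2, inner start (chr3:134374448-134374697, minus strand): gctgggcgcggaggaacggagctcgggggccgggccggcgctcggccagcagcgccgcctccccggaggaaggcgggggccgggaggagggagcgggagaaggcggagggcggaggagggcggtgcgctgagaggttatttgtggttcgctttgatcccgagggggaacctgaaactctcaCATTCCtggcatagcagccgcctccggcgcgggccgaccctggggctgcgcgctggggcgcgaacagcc
AMOTL2, outer start (chr3:134375418-134375667, minus strand): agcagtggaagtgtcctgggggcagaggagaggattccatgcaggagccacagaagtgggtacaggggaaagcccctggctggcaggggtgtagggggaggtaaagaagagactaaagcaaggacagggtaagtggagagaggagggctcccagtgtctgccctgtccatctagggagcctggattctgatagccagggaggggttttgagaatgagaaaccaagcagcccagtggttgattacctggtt
AMOTL1 (chr11:94768106-94768355, plus strand): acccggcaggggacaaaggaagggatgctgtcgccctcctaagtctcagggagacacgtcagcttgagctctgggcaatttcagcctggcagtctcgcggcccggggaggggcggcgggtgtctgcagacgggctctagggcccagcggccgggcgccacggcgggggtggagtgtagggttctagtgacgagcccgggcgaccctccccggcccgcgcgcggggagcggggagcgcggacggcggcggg
AMOT (chrX:112840832-112841081, minus strand): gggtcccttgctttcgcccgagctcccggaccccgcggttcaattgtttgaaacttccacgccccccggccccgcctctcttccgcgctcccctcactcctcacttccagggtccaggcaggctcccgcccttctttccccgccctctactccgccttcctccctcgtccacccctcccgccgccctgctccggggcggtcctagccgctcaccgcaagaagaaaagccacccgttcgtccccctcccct

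The ANKRD1 sequence held the TEAD core at 2 places, at bases 128 to 123 and 220 to 215 before the start. The inner AMOTL2 sequence held it once, at bases 69 to 64 before the start, and the outer AMOTL2, the AMOTL1 and the AMOT sequences did not hold these letters. Of the 35116 promoter sequences in the table, 4175 (11.9%) held the core at least once and 330 (0.940%) at least 2 times. These matches describe letters and are not evidence that a factor sits there.

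The loci differed in how many peaks they held. AMOTL2 had 26 TEAD1 peaks, 14 TEAD4 peaks and 3 HA-YAP5SA peaks. AMOTL1 had 11 TEAD1 peaks, 5 TEAD4 peaks and 1 HA-YAP5SA peak, and ANKRD1 had 8 TEAD1 peaks, 3 TEAD4 peaks and 2 HA-YAP5SA peaks. AMOT had 2 TEAD1 peaks and none from TEAD4 or HA-YAP5SA. The order from AMOTL2 through AMOTL1 and ANKRD1 to AMOT held for TEAD1 and TEAD4, whereas in the HA-YAP5SA list ANKRD1 stood above AMOTL1 by 1 peak.

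As background, chromosomes 1 to 22 and X were tiled into 15179 windows of 200 kb, the width of a locus. Of these, 67.5% held at least 1 TEAD1 peak, 38.9% at least 1 TEAD4 peak and 4.94% at least 1 HA-YAP5SA peak. At least 26 TEAD1 peaks, the AMOTL2 count, were found in 3 windows (0.0198%), at least 14 TEAD4 peaks in 2 windows (0.0132%) and at least 3 HA-YAP5SA peaks in 11 windows (0.0725%). Few windows of the genome therefore held as many peaks of any of these lists as AMOTL2. The AMOTL1 count of TEAD1 peaks was reached by 2.17% of windows and the ANKRD1 count by 7.02%, while 50.8% of windows held as many as AMOT. For TEAD4 the AMOTL1 count was reached by 2.65% of windows and the ANKRD1 count by 10.3%. At least 2 HA-YAP5SA peaks, as at ANKRD1, were found in 0.520% of windows, and at least 1, as at AMOTL1, in the 4.94% given above. Peaks of all 3 lists, as at AMOTL2, AMOTL1 and ANKRD1, occurred together in 4.76% of windows. The tiles also cover stretches without genes and are not centred on gene starts, so these shares describe the genome and not other genes.

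**Figure D1:**
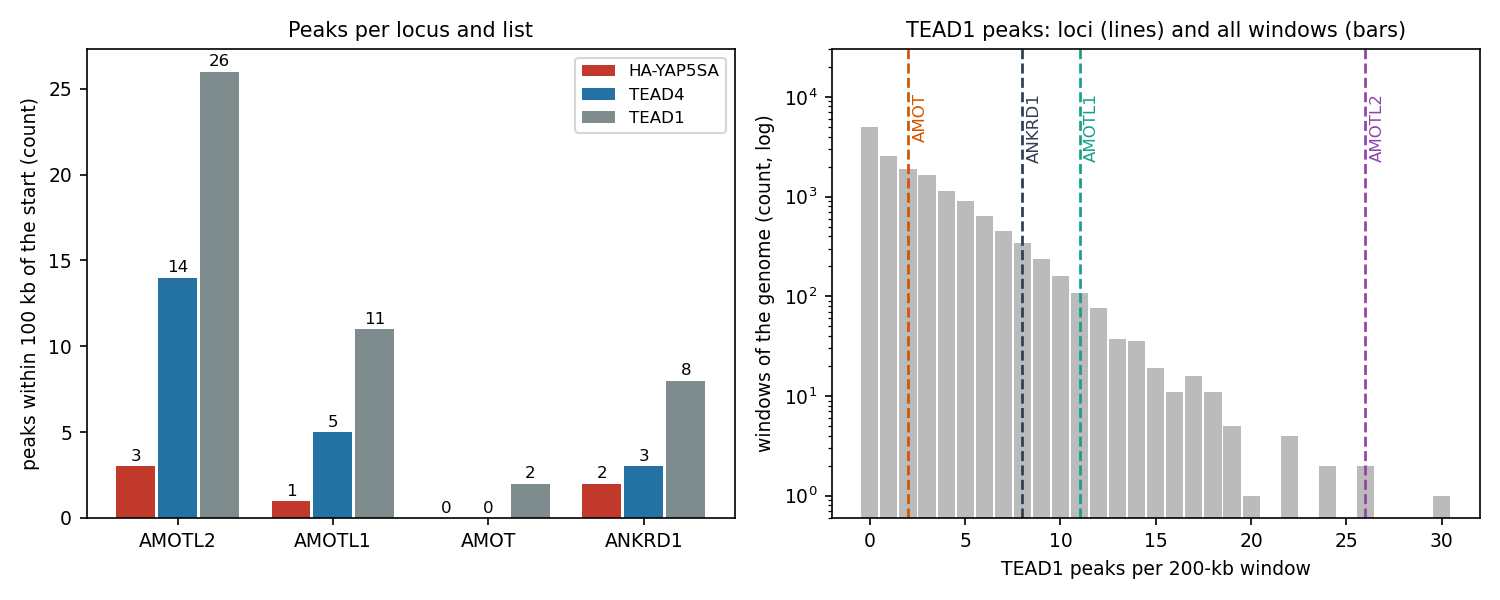
Left, the number of HA-YAP5SA, TEAD4 and TEAD1 peaks (bars, y axis) within 100 kb of each transcription start (x axis). Right, the number of 200-kb windows (log y axis) by the TEAD1 peaks they hold (x axis), with dashed lines at the 4 loci: AMOTL2, with 26 TEAD1 peaks, lies at the far right of the distribution and AMOT, with 2, lies among the most common values.

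YAP and TAZ antibody peaks were not found at any of the 4 loci. None of the 454 YAP peaks was a member, and none of the 153 TAZ peaks. The counting limit used for an empty count, 3 peaks, equals 0.661% of the YAP list and 1.96% of the TAZ list. It treats peaks as independent and is not a share of the lists themselves. Among the genome windows, 0.883% held a YAP peak and 0.329% a TAZ peak, so an empty window is the usual case for both lists. The peaks in these windows were clumped. They lay in 134 windows for YAP and 50 for TAZ, with as many as 28 YAP or 16 TAZ peaks in a single window. Whether these lists could detect binding at the loci was not tested. The nearest YAP peak lay 2.25 Mb from the AMOTL2 start, 3.48 Mb from that of ANKRD1, 19.4 Mb from that of AMOTL1 and 50.3 Mb from that of AMOT. The nearest TAZ peak lay 0.530 Mb from the AMOTL1 start, and chromosome 3, which carries AMOTL2, had no TAZ peak.

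At the AMOTL2 start itself all 3 of the lists with members placed a peak over the same bases. The HA-YAP5SA peak (chr3:134093168-134093649) scored 261 and ranked 90 of 847 in its list. It ran from 390 bp upstream to 91 bp downstream of the start. The scores are the authors' own values on a scale that is not stated, so only ranks within a list are compared. It was the highest-ranked HA-YAP5SA peak of the 4 loci, and 0.573% of windows held one with a score at least as high. The TEAD4 peak there (chr3:134093068-134093667) scored 999 and ranked 154 of 12188. The TEAD1 peak (chr3:134093074-134093754) scored 1190 and ranked 902 of 38186. The HA-YAP5SA centre lay 5.50 bp from the TEAD1 centre and 41 bp from the TEAD4 centre. A weaker pair of TEAD1 and TEAD4 peaks, ranked 34466 and 10443, lay on the other side of the start, 574 and 547 bp downstream.

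The TEAD4 peak of highest score at AMOTL2 lay away from the promoter. It was centred 47.5 kb downstream of the start (chr3:134044922-134046636), scored 3100, the highest value of the TEAD4 list, and shared that score with other peaks, 5 in all, which lie in 0.0329% of windows. The 5 tied peaks cannot be ordered among themselves. The YAP list also ended at 3100, while the TEAD1 list reached 3147, and whether 3100 is a cap is unknown. Of the 122 TEAD4 peaks in the highest 1 percent of scores, 82.8% overlapped HA-YAP5SA, as did the peak 47.5 kb downstream. It was 1715 bp wide, against a median of 352 bp in the TEAD4 list, and overlapped 2 separate TEAD1 peaks. The stronger of these (chr3:134045531-134046380, score 1697) ranked 256 and the weaker (chr3:134044822-134045502, score 587) ranked 4294. An HA-YAP5SA peak (chr3:134045804-134046177, score 179, rank 200) lay on the stronger one, with centres 35 bp apart. The third HA-YAP5SA peak at AMOTL2 (chr3:134076821-134077061), 16.3 kb downstream, scored 83.5 and ranked 769, near the end of its list. The TEAD1 and TEAD4 peaks under it ranked 1596 and 2339.

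The highest TEAD1 score at AMOTL2 was at a site with no HA-YAP5SA peak. This TEAD1 peak (chr3:134145894-134146901), 53.1 kb upstream of the start, scored 2104 and ranked 102, and 0.659% of windows held a TEAD1 score at least as high. A TEAD4 peak over it (chr3:134146094-134146759) scored 1098 and ranked 119. For comparison, 60.7% of the 382 TEAD1 peaks in the highest 1 percent of scores overlapped HA-YAP5SA. The TEAD4 peak was in the highest 1 percent of its own list, where 82.8% of the 122 peaks overlapped HA-YAP5SA. By either share a site without HA-YAP5SA was in the minority, more so by TEAD4. Both shares pool all ranks of the highest 1 percent. The next protein-coding gene upstream of AMOTL2 in the RefSeq gene order is ANAPC13 and the next downstream is RYK. Without an hg19 annotation the peak was not assigned to an intron, an exon or the space between genes, nor to any of these genes.

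The downstream side of AMOTL2 also held a row of TEAD sites without HA-YAP5SA. A TEAD1 peak 39.4 kb downstream (chr3:134053319-134054386) scored 934 and ranked 1724, and the 2 TEAD4 peaks within it had scores of 131 and 132, below the TEAD4 median of 162. At 21.9 kb downstream a TEAD1 peak scored 777 and ranked 2562, over a TEAD4 peak that ranked 1339. At 42.8 kb the TEAD1 peak scored 755 and ranked 2703, over a TEAD4 peak that ranked 3035. These 3 TEAD1 peaks and another, 60.9 kb downstream with a score of 645, were in the highest decile of the TEAD1 list. A site 10.2 kb downstream had a TEAD1 peak ranked 7589 in its list and a TEAD4 peak that scored 441 and ranked 1284 in its own. Ranks from lists of different lengths were not set against each other. At the weak end, 9 of the 26 TEAD1 peaks of AMOTL2 scored below the list's median, as did 3 of 11 at AMOTL1, 5 of 8 at ANKRD1 and 2 of 2 at AMOT. The median TEAD1 score was 278 at AMOTL2, 265 at AMOTL1, 161 at ANKRD1 and 109 at AMOT, against 177 in the whole list.

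AMOTL2 peaks lay mostly to the downstream side. Of its 26 TEAD1 peaks, 19 were downstream of the start and 7 upstream, and of its 14 TEAD4 peaks, 12 were downstream and 2 upstream. AMOTL1 had 5 TEAD1 peaks downstream and 6 upstream, and ANKRD1 had 2 downstream and 6 upstream. The median distance of TEAD1 peaks from the start was 41.3 kb at AMOTL2, 23.5 kb at AMOTL1 and 12.3 kb at ANKRD1. The outermost AMOTL2 member was a TEAD1 peak at 99.6 kb with a score of 285, and the first beyond the limit lay at 109 kb with a score of 285.

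**Figure D2:**
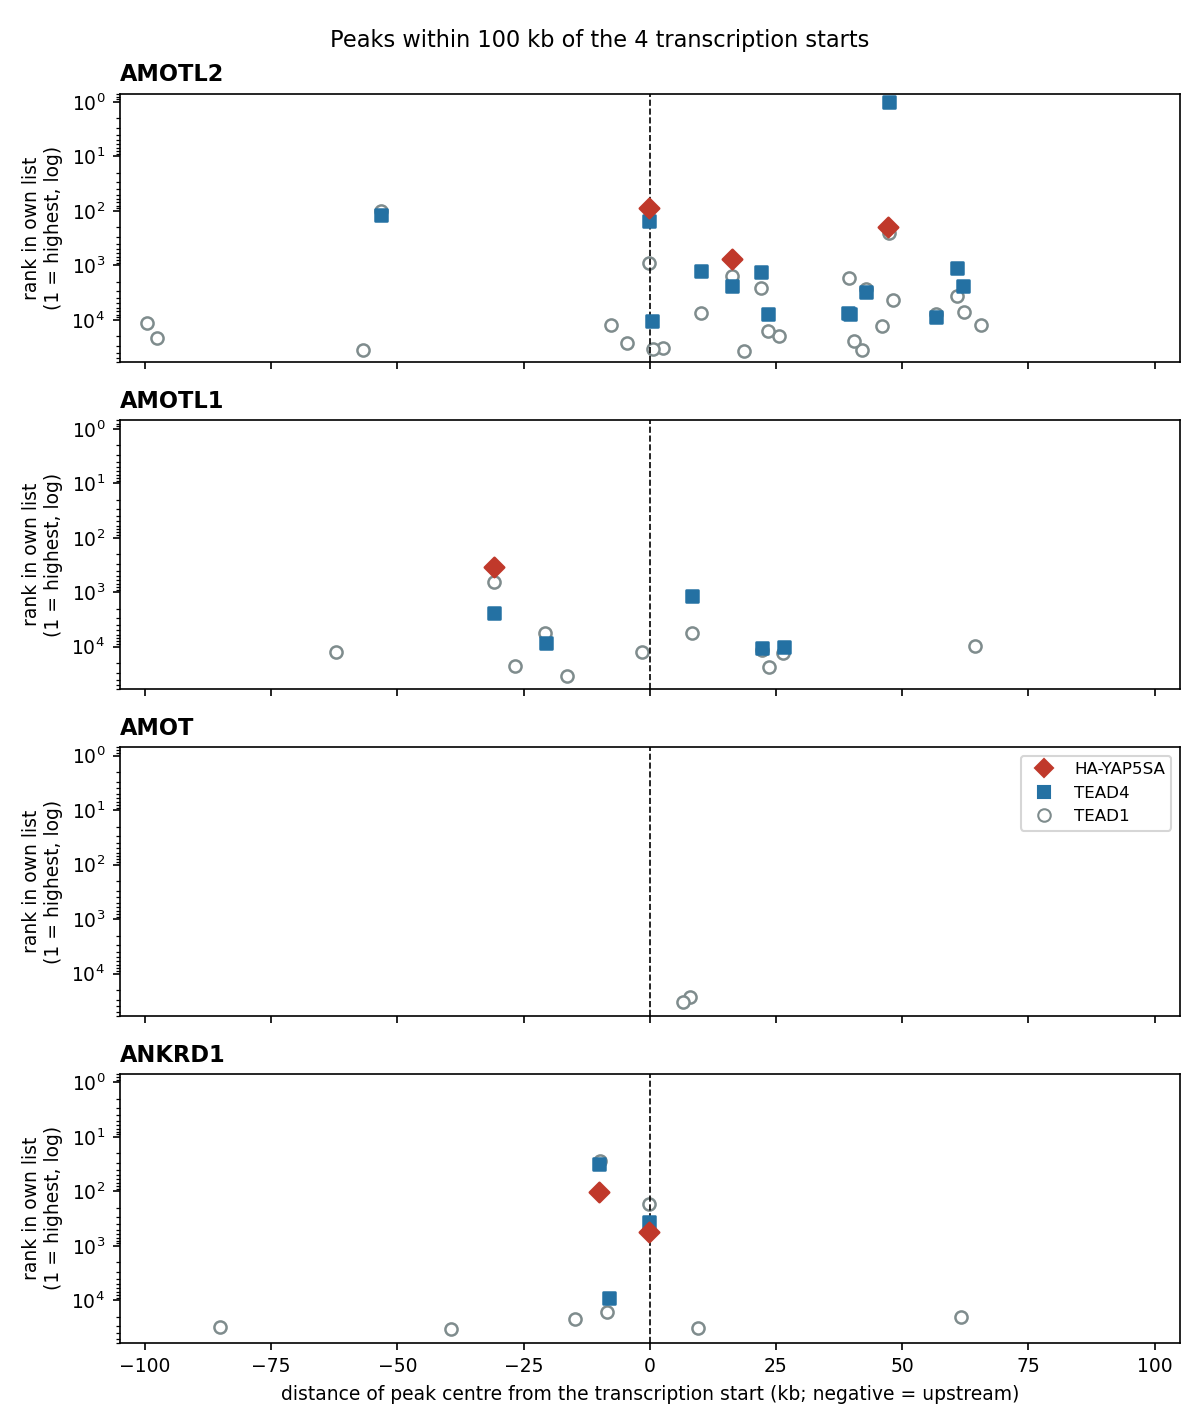
Each panel shows the peaks of 1 locus by the distance of their centre from the transcription start in kb (x axis, negative upstream along the gene) and by their rank within their own list (log y axis, rank 1 at the top), with diamonds for HA-YAP5SA, squares for TEAD4 and open circles for TEAD1. AMOTL2 and ANKRD1 have all 3 kinds of peak at or just upstream of the start, AMOTL1 has its HA-YAP5SA peak 30.9 kb upstream, and AMOT has 2 low-ranked TEAD1 peaks.

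ANKRD1 held fewer peaks than AMOTL2 or AMOTL1 but the highest-ranked TEAD1 peak of the 4 loci. Its strongest site was 9.81 kb upstream of the start, where a TEAD1 peak (chr10:92689995-92691685) scored 2816 and ranked 28 of 38186. The TEAD4 peak within it (chr10:92690700-92691466) scored 1574 and ranked 32 of 12188. The HA-YAP5SA peak there (chr10:92690955-92691264) scored 249 and ranked 104 of 847. A TEAD1 score at least this high was found in 28 windows of the genome (0.184%), and a TEAD4 score at least this high in 32 windows (0.211%). For the HA-YAP5SA score this was 100 windows (0.659%). The HA-YAP5SA centre lay 26.5 bp from the TEAD4 centre and 270 bp from the centre of the wider TEAD1 peak.

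The ANKRD1 promoter was the other site with all 3 lists. Its TEAD1 peak (chr10:92680633-92681694) scored 1866, ranked 170 and covered the start and 662 bp upstream of it. The TEAD4 peak (chr10:92680844-92681358) scored 751 and ranked 356. The HA-YAP5SA peak (chr10:92681086-92681287) scored 98.2, ranked 564 and lay between 54 and 255 bp upstream of the start. The TEAD cores of the ANKRD1 sequence above were not placed against these peaks. They are counted from the RefSeq start, and its match to the hg19 start was not checked. The 6 remaining TEAD1 peaks of ANKRD1 ranked between 16524 and 32766, and 1 of them, 8.39 kb upstream, carried the third TEAD4 peak (rank 9192).

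The HA-YAP5SA and TEAD1 orders of the promoters differed. In the HA-YAP5SA list the AMOTL2 promoter ranked 90 and the ANKRD1 promoter 564, while in the TEAD1 list AMOTL2 ranked 902 and ANKRD1 170. In the TEAD4 list AMOTL2 ranked 154 and ANKRD1 356, the same order as in the HA-YAP5SA list. With 1 library per list, the spread that a repeat would give these ranks is unknown.

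AMOTL1, whose product also binds YAP at cell junctions, had no peak over its start. The nearest was a TEAD1 peak 1.43 kb upstream (chr11:94499704-94500444) with a score of 265 and rank 12524, without TEAD4. Its single site with HA-YAP5SA was 30.9 kb upstream, where the HA-YAP5SA peak (chr11:94470437-94470841) scored 130 and ranked 341, a score reached in 2.08% of windows. The TEAD1 peak there (chr11:94470161-94471256) scored 1325 and ranked 650, the highest TEAD1 rank of the locus, reached in 3.91% of windows. TEAD4 ordered the locus otherwise. Its peak at the HA-YAP5SA site scored 319 and ranked 2354, below a TEAD4 peak 8.38 kb downstream of the start (chr11:94509665-94510109), which scored 460 and ranked 1183, a score reached in 6.69% of windows. The other 3 TEAD4 peaks of AMOTL1 had scores of 95.3, 100 and 116, below the list's median of 162.

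AMOT, the founding angiomotin, had few and weak peaks. Its 2 TEAD1 peaks (chrX:112075995-112076296 and chrX:112077311-112077627) lay 7.90 and 6.57 kb downstream of the start and had scores of 120 and 97.5. Both were below the TEAD1 median of 177 and ranked 27170 and 32570, and 59.8% of windows held a TEAD1 score at least as high as the better one. They were 302 and 317 bp wide, against a median of 552 bp in the list. The nearest TEAD4 peak was 1.80 Mb from the start and the nearest HA-YAP5SA peak 19.3 Mb from it. Peaks were sparser on chromosome X than over all windows: 51.3% of its 776 windows held a TEAD1 peak, 20.0% a TEAD4 peak and 2.06% an HA-YAP5SA peak. A window with TEAD1 but neither TEAD4 nor HA-YAP5SA, as at AMOT, was a common pattern, found in 28.7% of all windows.

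Peaks that overlapped were then joined into sites, which gave 46 sites at the 4 loci. TEAD1 was present at each of them, alone at 25, with TEAD4 at 15, and with TEAD4 and HA-YAP5SA at 6. All 6 HA-YAP5SA peaks lay on both TEADs, a pattern that 92.2% of the whole HA-YAP5SA list shared. All 22 TEAD4 peaks overlapped TEAD1 (100%, exact binomial interval 84.6 to 100%), as did 97.1% of the TEAD4 list. Both shares at the loci were near those of the whole lists. HA-YAP5SA overlapped 6 of the 22 TEAD4 peaks (27.3%, 10.7 to 50.2%), against 6.28% of the TEAD4 list, with no matching for TEAD4 score.

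Among the 47 TEAD1 peaks of the loci, 22 overlapped TEAD4 (46.8%, 95% interval 32.1 to 61.9%), against 30.6% of the whole TEAD1 list. HA-YAP5SA overlapped 6 of them (12.8%, 4.83 to 25.7%), against 2.06% of the list. Intervals cover counting error over peaks alone, and peaks of a locus share their chromatin and are not replicates. By locus, 14 of 26 TEAD1 peaks overlapped TEAD4 at AMOTL2, 5 of 11 at AMOTL1, 3 of 8 at ANKRD1 and 0 of 2 at AMOT. These shares move with the TEAD1 score, so the list was also split at its highest decile. Of the TEAD1 peaks of the loci, 11 were in that decile, 8 of them at AMOTL2, 2 at ANKRD1 and 1 at AMOTL1. All 11 overlapped TEAD4, against 97.0% of the decile genome-wide. HA-YAP5SA overlapped 6 of the 11, namely 3 of 8 at AMOTL2, 2 of 2 at ANKRD1 and 1 of 1 at AMOTL1, against 17.3% of the decile genome-wide. The decile is not a close match in score for these peaks. Those ranked 28, 102, 170 and 256 were in the highest 1 percent of the list, where 60.7% of peaks overlapped HA-YAP5SA. All of them but the peak ranked 102 did so. Of the 36 lower-scoring TEAD1 peaks, 11 overlapped TEAD4, against 23.2% of such peaks genome-wide, and none overlapped HA-YAP5SA, against 0.370% of such peaks genome-wide.

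Sites differed in TEAD1 rank by what else was there. The 25 sites with TEAD1 alone ranked between 9791 and 37969 in the TEAD1 list, with a median of 23365. The 15 sites with TEAD1 and TEAD4 ranked between 102 and 34466 by their best TEAD1 peak, with a median of 7054. The 6 sites with all 3 lists ranked between 28 and 1596, with a median of 453. The sites with all 3 lists all ranked above those with TEAD1 alone, while the sites with TEAD1 and TEAD4 overlapped both other kinds. Over the 21 sites with both TEADs, Spearman's correlation of the TEAD1 and TEAD4 scores was 0.82, and over the 13 such sites of AMOTL2 it was 0.77. This is a description: the points come from the same 2 libraries and the sites of a locus lie close together. The whole TEAD1 list went the same way, so the order is not particular to these loci. TEAD4 overlapped 97.0% of its highest score decile and 23.2% of the rest, and HA-YAP5SA overlapped 17.3% and 0.370%. The medians and the correlation were not computed over whole lists.

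**Figure D3:**
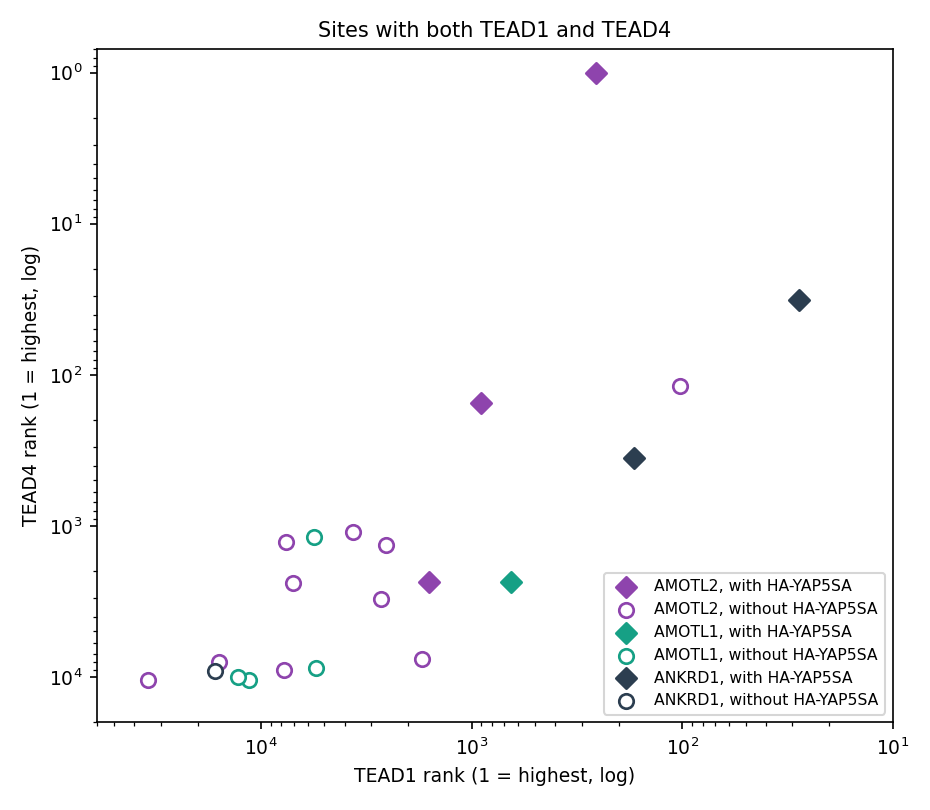
The 21 sites with both TEAD1 and TEAD4 are plotted by TEAD1 rank (log x axis, rank 1 to the right) and TEAD4 rank (log y axis, rank 1 at the top), coloured by locus, with filled diamonds where an HA-YAP5SA peak overlaps and open circles where none does. The 6 diamonds lie at TEAD1 ranks of 1596 or better, and the open circle at TEAD1 rank 102 is the AMOTL2 site 53.1 kb upstream.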

How the data were processed

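Chromatin was cross-linked, sonicated and precipitated, per the labels' protocols. The submitters' processing notes name Bowtie2, with no version, and the hg19 build. Peak names begin with MACS, per the deposited lists, and nothing more on the caller, such as its version, threshold or control, was given in the sources used here. The lowest score was 80.0 in the TEAD1 and TEAD4 lists, 80.05 for YAP, 80.08 for HA-YAP5SA and 80.18 for TAZ. Whether a score of 80 was a cutoff is not stated. Every list comes from 1 library, grouped by its title, and each peak has a score that is the authors' own deposited value on an unstated scale. A peak list reflects library depth, antibody, control and threshold together, so peak counts were not compared between lists as amounts of binding. Lists without a header were read as BED and their starts raised by 1, so starts are uncertain by 1 bp.

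Peaks with centres within 100 kb of each start were taken, ranked by score within the whole list (ties share the best rank) and called shared at 1 bp of overlap. Strand and promoters came from RefSeq tables (GRCh38.p14), from which no peak was placed. The same quantities over whole lists and 200-kb windows, including the loci themselves, serve as background. No test was run, since there are no replicates. Intervals are exact Clopper-Pearson at 95%, and where no peak was found the upper limit is 3 peaks. Peaks named are every HA-YAP5SA peak, the strongest TEAD1 and TEAD4 peak and the nearest to each start, with neighbouring TEAD peaks added after their values were seen. The members, lists and motif were chosen with earlier results of these data known. Counting, ranking and overlap were tested on simulated data. The software was SciPy 1.17.1, pandas 2.3.3 and NumPy 2.4.6 under Python 3.11.15, with matplotlib 3.10.9 for figures. Alternatives were windows of 50 and 200 kb, peak edges in place of centres, 50% overlap, centres within 500 bp, scores at or above the list median, equal numbers of TEAD1 and TEAD4 peaks, and ranking by width.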

Additional observations from a re-analysis of the deposited data

How the results depend on the processing

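Of 46 alternative values, 34 stayed close to the reported one (within 1.5 times for counts, within the 95% interval for shares and percentiles) and 12 moved. For percentiles the interval is a convention only. It does not measure how the rank of a single peak would vary, and small changes counted as moved. Windows of 50 or 200 kb and peak edges in place of centres kept every peak count within that limit. Keeping peaks whose score reached the median of the list they came from left 28 peaks at AMOTL2, 11 at AMOTL1, 0 at AMOT and 6 at ANKRD1. The TEAD1 list was also cut, by score, to as many peaks as the TEAD4 list. Then 18 of 21 TEAD1 peaks at the loci (85.7%) overlapped TEAD4 and 6 of 21 (28.6%) overlapped HA-YAP5SA. Of the TEAD4 peaks, 18 of 22 (81.8%) overlapped TEAD1. These changes follow from the removal of low-scoring TEAD1 peaks. The same shares over the whole cut list are not given here, so these values are not comparable with the whole-list shares above. Within 50 kb the best TEAD1 peak of AMOTL2 had a score percentile of 99.33 in place of 99.74, since the site 53.1 kb upstream was left out. Ranked by width, the best TEAD1 percentile was 97.91 at AMOTL2, 98.54 at AMOTL1, 3.06 at AMOT and 99.85 at ANKRD1, against 99.74, 98.30, 28.85 and 99.93 by score. The widest TEAD1 peak was also the highest-scoring one only at ANKRD1. By score the widest peaks of AMOTL2, AMOTL1 and AMOT ranked 7054, 5494 and 32570. No paired analysis was possible because each antibody has 1 library. Depth is unknown, so the absence of a peak says only that none was listed.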

Other observations

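Between 100 and 200 kb from the starts no list other than TEAD1 had a peak at any of the 4 loci. TEAD1 had 5 further peaks there at AMOTL2, 2 at AMOTL1, 4 at ANKRD1 and 0 at AMOT. Their best rank was 11490, at AMOTL2, so no high-scoring site lay in that outer zone. The next TEAD4 peak beyond the limit was 366 kb from the AMOTL2 start, 264 kb from that of ANKRD1 and 224 kb from that of AMOTL1. The next HA-YAP5SA peak was 894 kb from the AMOTL2 start, 1000 kb from that of ANKRD1 and 4303 kb from that of AMOTL1.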
